A study of Mus musculus with 3 samples.

Results

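Satellite cells are the stem cells of skeletal muscle, and a small group of surface proteins and signalling regulators is used to recognise them or is tied to their resting state. The 10 genes described here are Ncam1, Sdc3, Sdc4, Vcam1, Megf10, Cd34, Cxcr4, Gas1, Calcr and Chrdl2, chosen by name from that group and found by gene symbol among the 35562 genes of the series, with 38 listed transcripts in all. RNA-seq was available for 3 myoblast lines, numbered 66, 67 and 72. All 3 carry the Dmdmdx allele, a stop mutation of dystrophin that causes muscular dystrophy in mice. They also carry the Pax7-nGFP reporter, which puts green fluorescent protein into the nuclei of PAX7-expressing cells. All 3 further carry a CRISPR/Cas9 edit, by which exon skipping restores the dystrophin reading frame. The myoblasts were FACS-purified progeny of satellite cells from mouse-mouse chimeras, made by injecting edited induced pluripotent stem cells into host blastocysts of the genotype Pax7 Cre/ERT2; Rosa26 lsl-DTA, in which tamoxifen kills host cells that express Pax7. The study describes checks of the edit in 1 iPSC clone and in chimera-derived myoblasts or their myotubes, and the labels give neither the tamoxifen status, the animal nor the age behind a line. The lines form 1 group with n = 3 and no control group, so levels are given as means ± SD and no difference was tested. Nothing in the labels says that the lines came from separate animals, so the SD may be partly technical.

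In resting muscle, satellite cells lie between the fibre and its basement membrane, held there by adhesion molecules and kept out of the cell cycle by Notch, calcitonin receptor and collagen signals. When they are activated and placed in culture they become dividing myoblasts, and several quiescence genes, the calcitonin receptor gene Calcr among them, are known to be shut down on activation. Other markers, such as the syndecans, NCAM and VCAM-1, are known to stay on myoblasts, where they serve adhesion, growth factor binding and fusion.

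The libraries held 73274315, 66972426 and 70272367 estimated counts in lines 66, 67 and 72. TPM values (transcripts per 1000000, which divide by length and can therefore be compared between genes) were summed per gene. The labelled cell type was checked on 5 myoblast markers (Pax7, Myod1, Myf5, Des and Itga7), of which all 5 were at 97.2 TPM or more in every line. Of 5 endothelial markers and 5 blood markers, none reached 1 TPM in any line. Of 5 fibro-adipogenic markers only Ly6a did, at 2.97 to 3.31 TPM, and Lum and Dpt had no count. Erbb3, listed as a Schwann cell marker, and Rgs5 and Acta2 of the 5 smooth muscle and pericyte markers passed 1 TPM in every line, while Myh11 of the latter list did not pass 0.0550 TPM.

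Of the 10 markers, 8 were at 1 TPM or more in every line, against 47.1% of the 25510 genes with any reads. At 10 TPM or more in every line there were 7 of the 10, against 31.5% of detected genes. The median level of the 10 on the log2(TPM + 1) scale was 4.90, 5.33 and 5.71 in lines 66, 67 and 72, against 0.89, 0.85 and 0.91 over all detected genes. In order of the mean TPM they ran Ncam1, Sdc4, Sdc3, Megf10, Vcam1, Gas1, Cxcr4, Cd34, Chrdl2 and Calcr. The values of the lines overlapped between Ncam1 and Sdc4, between Megf10 and Vcam1 and between Gas1 and Cxcr4, so the order within these 3 pairs is not settled by 3 lines. In every other neighbouring pair the lowest line of the higher gene stood above the highest line of the lower gene. In bulk RNA, fewer cells that express a gene and less RNA per cell cannot be told apart, which holds for each level given here.

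**Figure D1:**
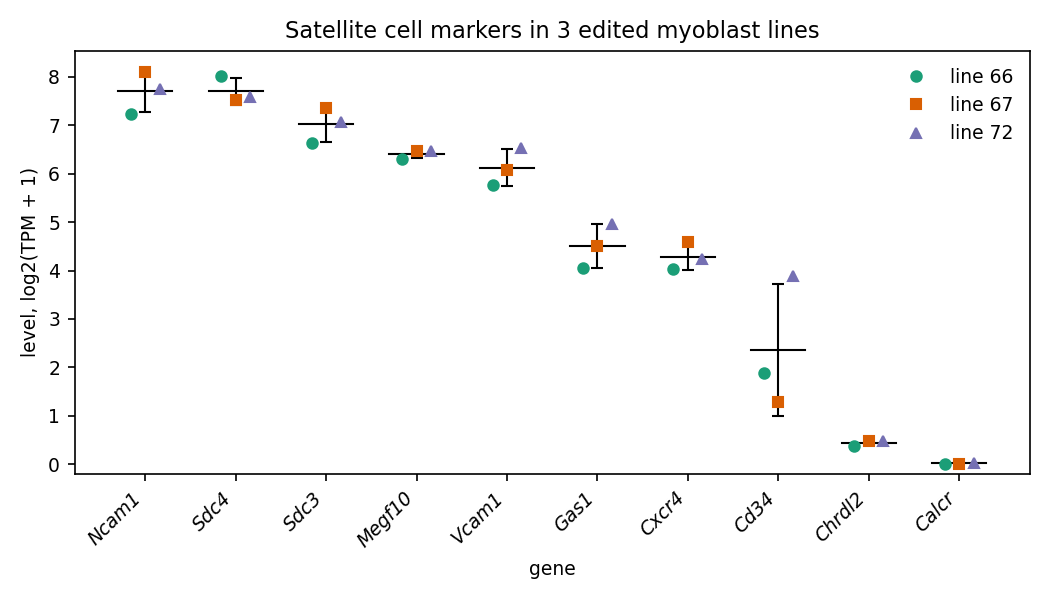
Level of each of the 10 markers on the log2(TPM + 1) scale (vertical axis), with genes in order of mean TPM on the horizontal axis. Points are the 3 lines, the horizontal bar is their mean and the error bar is the SD (n = 3); Cd34 has the widest spread, with line 72 at 13.8 TPM and line 67 at 1.45 TPM, and Calcr sits at 0.

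Ncam1 encodes the neural cell adhesion molecule NCAM, a surface glycoprotein that marks satellite cells and regenerating muscle and is made in forms that differ in how they are held in the membrane. The gene lies on the minus strand at chr9:49502136-49798925 (ENSMUSG00000039542). All coordinates given here are of GRCm38, from GENCODE M21, whereas the submitters' notes name GRCm39 for their processing. It had 150.3, 273 and 215 TPM in lines 66, 67 and 72 (mean 213 ± 61.5 TPM, SD, n = 3). Line 66 was the lowest and line 67 the highest, 1.82-fold apart, with line 72 between them. The transcripts part at their 3′ coding ends, which are shown here because they decide the class of protein. Ncam1-201 ends on an exon for a glycosylphosphatidylinositol (GPI) anchor, and Ncam1-204 on the exon that closes the cytoplasmic tail of the transmembrane forms. The last 60 coding bases are printed 5′ to 3′, from chr9:49517506-49517565 for the first and chr9:49505443-49505502 for the second, both on the minus strand, with the stop codon in capitals.
Ncam1-201: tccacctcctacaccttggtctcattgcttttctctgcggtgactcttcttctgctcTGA
Ncam1-204: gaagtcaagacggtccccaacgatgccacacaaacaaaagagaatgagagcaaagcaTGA

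The GPI-anchored transcript Ncam1-201 had 61.3, 113 and 87.5 TPM in lines 66, 67 and 72. As a share of the gene this was 40.8%, 41.5% and 40.6% (mean 41.0% ± 0.459, SD, n = 3). The transmembrane transcripts without the long exon, Ncam1-202 and Ncam1-204, together had 64.3, 117 and 92.2 TPM, a share of 42.8% ± 0.0224 (SD, n = 3). Ncam1-205, which carries an extra exon of 801 bases (chr9:49506853-49507653) that lengthens the cytoplasmic tail, had 18.9, 34.6 and 26.9 TPM, or 12.6% ± 0.0887 of the gene (SD, n = 3). The 3 classes therefore kept nearly the same shares in all 3 lines while the gene moved 1.82-fold between lines 66 and 67. Each class moved alike between those lines, by 1.85-fold, 1.82-fold and 1.83-fold. By estimated counts, which are not divided by length, Ncam1-201 held 25.9% to 26.0% of the gene in each line. Ncam1-203, which stops early, held 3.02% to 3.90% of the TPM.

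Small exons of Ncam1 are known to be spliced in by tissue, and those annotated are printed here in full, since the muscle-specific domain (MSD1) is the part of the molecule named for this tissue. All lie on the minus strand of chromosome 9, at chr9:49550540-49550569 for VASE, an exon within an immunoglobulin domain, and at chr9:49541888-49541902, chr9:49536990-49537037 and chr9:49535209-49535250 for the MSD1 exons a, b and c. Capitals mark the whole exon.
VASE: GCATCGTGGACTCGACCAGAGAAGCAAGAG
MSD1a: ATAGCCCTCCTCCAC
MSD1b: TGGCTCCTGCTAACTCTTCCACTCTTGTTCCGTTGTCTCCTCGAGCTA
MSD1c: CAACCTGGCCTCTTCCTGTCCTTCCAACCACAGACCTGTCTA

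VASE and MSD1a stand in Ncam1-205, so the 6291, 10591 and 8537 estimated counts of that transcript in lines 66, 67 and 72 rest on its 801-base exon, these small exons and an exon of 3 bases together. These features were not measured apart. MSD1b and MSD1c stand only in Ncam1-206, a fragment of 146 bases, which had 1 count in line 66 and 0 in lines 67 and 72. With an average library fragment of about 360 bp, few reads can be placed wholly within a transcript of that length, and no longer listed transcript holds these exons. The values of Ncam1-206 therefore say little of how often the exons were used.

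NCAM carries long chains of polysialic acid on many cells, which are built by the enzymes of St8sia2 and St8sia4 and weaken adhesion. St8sia2 had 50.1, 64.1 and 79.4 TPM in lines 66, 67 and 72, and St8sia4 had 3.77, 5.37 and 8.40 TPM. Both were lowest in line 66 and highest in line 72, and St8sia2 was 9.46 to 13.3 times as high as St8sia4 per length. The related adhesion gene Ncam2 had 3 to 7.03 counts in a line and did not pass 0.0888 TPM.

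Sdc4 and Sdc3 encode syndecans, transmembrane proteoglycans whose heparan sulfate chains hold growth factors such as FGF2 and HGF near their receptors, and both are surface markers of satellite cells. Sdc4 (ENSMUSG00000017009, minus strand, chr2:164424247-164443887) had 258, 181 and 189 TPM in lines 66, 67 and 72 (mean 209 ± 41.9 TPM, SD, n = 3). It was the only one of the 8 markers averaging 1 TPM or more whose highest value fell in line 66, against 29.8% of the 12528 genes at such a level. Sdc3 (ENSMUSG00000025743, plus strand, chr4:130792537-130826319) had 97.8, 163 and 133 TPM (mean 132 ± 32.8 TPM, SD, n = 3). Here line 66 was the lowest, so the values of Sdc4 and Sdc3 ran in opposite directions between line 66 and the other lines.

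All 4 syndecans were well above 1 TPM. The relatives Sdc1 and Sdc2, the main syndecans of epithelial and mesenchymal cells, had 63.4 to 74.2 and 103 to 120.1 TPM. Together the 4 genes summed to 533, 511 and 517 TPM in lines 66, 67 and 72 (mean 521 ± 11.7 TPM, SD, n = 3), with a smaller SD than Sdc4 or Sdc3 alone. Sdc4 made up 48.3%, 35.5% and 36.6% of the sum and Sdc3 18.3%, 32.0% and 25.8%. Sdc2 held 19.8% to 23.2% and Sdc1 12.4% to 14.4%. Per length, Sdc4 exceeded Sdc3 by 2.63-fold in line 66, 1.11-fold in line 67 and 1.42-fold in line 72.

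The syndecans share a short cytoplasmic end that binds PDZ proteins such as syntenin, the product of Sdcbp. The last 39 coding bases of each gene, stop codon included, are printed 5′ to 3′ to show how close the members are in the part that defines the family, with the 13 bases found at the same place in all 4 in capitals. They lie at chr12:8791769-8791807 (plus), chr15:33032502-33032540 (plus), chr4:130822771-130822809 (plus) and chr2:164426086-164426124 (minus).
Sdc1: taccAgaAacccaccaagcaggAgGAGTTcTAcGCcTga
Sdc2: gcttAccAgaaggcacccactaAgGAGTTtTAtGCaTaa
Sdc3: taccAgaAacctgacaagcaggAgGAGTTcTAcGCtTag
Sdc4: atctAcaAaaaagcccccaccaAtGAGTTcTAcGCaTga

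In this stretch Sdc1 and Sdc3 were identical at 33 of 39 bases and Sdc2 and Sdc4 at 27 of 39, whereas Sdc3 and Sdc4 matched at 20 of 39. Over the whole genes, 99.2% of the 31-base words of Sdc4 and 93.7% of those of Sdc3 occurred in no other listed gene, so few reads of these genes could be shared with a relative. The words of Sdc3 that were not its own lay in the antisense genes Gm26716 (at most 5 counts in a line) and Gm12970 (no count). Whether the counting used strand is not given in the sources used here, and without it reads of a gene and of its antisense partner cannot be told apart.

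Sdc3 had a second transcript of note, Sdc3-205, which starts on another first exon and is annotated for 644 bases without a stop codon. It took 27.3%, 35.1% and 27.8% of the TPM of Sdc3 but 3.57% to 4.98% of its counts, because TPM divides by a short length. Only 27 of the 614 31-base words of Sdc3-205 are its own, so its share is uncertain. The full transcript Sdc3-201 alone had 68.2, 102 and 93.2 TPM and kept the same order of lines. Sdc4-201 held 88.1% to 91.5% of Sdc4, and the rest was Sdc4-202, which is annotated without a coding sequence.

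The partners of the syndecans were mostly present. Sdcbp had 147 to 158 TPM, Fgfr1 57.1 to 73.1 TPM, Met (the HGF receptor) 68.4 to 111 TPM and Fgfr4 22.8 to 42.6 TPM. The ligands were low, with Fgf2 at 0.991, 0.401 and 0.183 TPM and Hgf at 2.17, 3.63 and 0.768 TPM in lines 66, 67 and 72. Fzd7, which pairs with Sdc4 as a Wnt receptor in satellite cells, had 12.4 to 18.9 TPM, and Notch1, a partner of Sdc3, 27.4 to 29.9 TPM. Of 14 genes that build or edit heparan sulfate, 12 were at 10 TPM or more in every line, against 31.5% of detected genes, led by the extracellular sulfatase gene Sulf2 at 114 to 118 TPM. The other members, Xylt1 and Hs3st1, did not pass 0.475 TPM. None of the 12 was over 2-fold apart between any pair of lines, against 6.67% of all genes averaging 1 TPM or more. Of 5 enzymes that shed surface proteins, Adam10, Adam17, Mmp14 and Mmp2 were at 11.2 TPM or more in every line and Mmp9 did not pass 0.129 TPM.

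Vcam1 encodes VCAM-1, an immunoglobulin family receptor on quiescent and activated satellite cells that binds integrin α4β1. The gene lies on the minus strand at chr3:116109949-116129688 (ENSMUSG00000027962). It had 53.3, 66.6 and 91.1 TPM in lines 66, 67 and 72 (mean 70.3 ± 19.2 TPM, SD, n = 3), with 7325, 8436 and 12118 estimated counts. Line 72 was 1.71-fold above line 66. The full transcript Vcam1-201 held 85.4% to 89.3% of the TPM and the shorter Vcam1-203 5.10% to 6.11%. Vcam1-203 reads on from the fourth exon into an exon of its own (chr3:116122280-116123793) and corresponds to a truncated VCAM-1 known in mouse to be GPI-anchored. Its coding bases across that junction are printed beside those of Vcam1-201, 30 bases before the junction in lower case and the following 110 in capitals, to show where the proteins part. They span chr3:116123684-116124412 and chr3:116120964-116124412 on the minus strand.
Vcam1-203: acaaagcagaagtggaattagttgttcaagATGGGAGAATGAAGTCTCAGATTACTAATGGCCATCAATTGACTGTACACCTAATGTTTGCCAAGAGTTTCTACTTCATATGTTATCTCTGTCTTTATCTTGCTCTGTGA
Vcam1-201: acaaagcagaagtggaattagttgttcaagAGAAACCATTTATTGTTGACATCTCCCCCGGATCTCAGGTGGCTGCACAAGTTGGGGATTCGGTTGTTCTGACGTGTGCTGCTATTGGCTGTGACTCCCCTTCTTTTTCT

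Vcam1-203 had 2.95, 4.07 and 4.64 TPM in lines 66, 67 and 72, from 280.2, 349.8 and 411 counts, and 60.5% of its 31-base words occur in no other transcript. Its lines stood in the same order as those of Vcam1-201, which had 45.5, 58.0 and 81.3 TPM. Vcam1-202, a fragment annotated without a stop codon, had 3.35 to 3.57 TPM. The α4 integrin chain, Itga4, had 4.95, 6.80 and 7.42 TPM, so Vcam1 stood 9.78 to 12.3 times above it per length. Its β1 partner Itgb1 was far more abundant, at 349.6, 373 and 384 TPM, and Itgb7, the other partner of α4, had 10 to 28 counts in a line. The related adhesion gene Icam1 did not pass 0.483 TPM.

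Cxcr4 encodes the receptor of the chemokine CXCL12 and is used to sort satellite cells together with β1 integrin. It lies on the minus strand at chr1:128588199-128592293 (ENSMUSG00000045382). Its level was 15.3, 22.9 and 17.9 TPM in lines 66, 67 and 72 (mean 18.7 ± 3.86 TPM, SD, n = 3). Its transcripts differ at the end of the first exon, where Cxcr4-201 keeps 6 bases (chr1:128592189-128592194) that Cxcr4-202 lacks. The first coding bases of both are printed, with those 6 bases in capitals, because they are the only difference within the coding start. Both span the intron between chr1:128589878 and chr1:128592209.
Cxcr4-201: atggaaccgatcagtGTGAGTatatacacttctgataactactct
Cxcr4-202: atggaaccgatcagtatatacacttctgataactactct

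Cxcr4-202 held 23.2% and 26.7% of the TPM in lines 66 and 67 and 5.97% in line 72. In estimated counts it had 161, 255 and 46.1, while Cxcr4-201 had 1017, 1337 and 1386. Line 72 thus stood below both other lines for the shorter form, while Cxcr4-201 was at 11.8, 16.8 and 16.8 TPM. Only 30 of the 872 words of Cxcr4-202 are its own, so its share rests on the reads that cross that 1 junction and on where the annotated 3′ ends stop. The ligand gene Cxcl12 was 6.27 to 9.08 times as high as Cxcr4 per length, at 139, 144 and 133 TPM. Ackr3, the decoy receptor of the same ligand, had 62.3, 50.7 and 39.5 TPM and was also above Cxcr4 in all 3 lines.

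Megf10 encodes an EGF-repeat receptor that is required in satellite cells for the balance of proliferation and differentiation. The gene lies on the plus strand at chr18:57133090-57297467 (ENSMUSG00000024593). It was the most even of the 8 markers, at 78.4, 87.7 and 87.1 TPM in lines 66, 67 and 72 (mean 84.4 ± 5.21 TPM, SD, n = 3). The highest line was 1.12-fold above the lowest. Of the 12528 genes averaging 1 TPM or more, 23.7% had a range between lines at or below that of Megf10. Nearly all reads fell to Megf10-201, and Megf10-202 had at most 21.9 counts. Its relatives differed widely, with Pear1 at 1.71 to 2.43 TPM and Megf11 at 4.18 to 7.12 counts. Crkl, an adaptor listed with Megf10, had 38.7 to 46.3 TPM.

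Gas1 encodes a GPI-anchored protein first found as growth-arrest specific, which acts as a co-receptor of Hedgehog ligands and binds the GDNF receptor RET. It lies on the minus strand at chr13:60174405-60177365 (ENSMUSG00000052957) in a single exon. It had 15.5, 21.7 and 30.1 TPM in lines 66, 67 and 72 (mean 22.4 ± 7.31 TPM, SD, n = 3), from 2342, 3020 and 4188 counts, all given to Gas1-201. Line 72 was 1.94-fold above line 66, just under the 2-fold mark. Of the 31-base words of Gas1, 81.8% were its own and the rest were shared with Gm48488, a long noncoding RNA of the opposite strand that had 49.2, 66.9 and 57.6 counts. These counts are few beside those of Gas1. Of the other Hedgehog co-receptors, Cdon had 277, 221 and 259 TPM, 8.63 to 17.9 times as high as Gas1 per length, and Boc 3.85 to 5.98 TPM. Smo, the signal transducer, had 40.8 to 54.0 TPM and Ptch1, receptor and target gene of the pathway, 3.61 to 4.76 TPM, while Shh had 2 counts in line 66 and 0 in the others. Ret stood at 0.222 to 0.542 TPM, and of the related GDNF receptor genes Gfra1 was at 12.9, 19.9 and 25.8 TPM.

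Cd34 was the marker that differed most between lines. It encodes CD34, a sialomucin found on quiescent satellite cells and also on endothelial, blood stem and fibro-adipogenic cells. The gene lies on the plus strand at chr1:194938819-194961279 (ENSMUSG00000016494). Cd34 had 2.68, 1.45 and 13.8 TPM in lines 66, 67 and 72 (mean 5.99 ± 6.82 TPM, SD, n = 3), from 322, 152 and 1194 estimated counts. Line 72 stood apart at 5.16-fold above line 66 and 9.52-fold above line 67. In counts per 1000000 (CPM), which use no length, the same ratios were 3.87 (exact 95% interval 3.42 to 4.39) and 7.49 (6.32 to 8.92), and these intervals cover counting error only.

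The protein coding transcripts of Cd34 part at the last splice junction. Cd34-202 uses an acceptor 156 bases upstream (chr1:194959780-194959935) and meets a stop codon within 15 bases, which removes most of the cytoplasmic tail, whereas Cd34-201 runs on into the full tail. The bases at that junction are printed, with those after it in capitals. They span chr1:194959201-194959794 and chr1:194959201-194959950 on the plus strand.
Cd34-202: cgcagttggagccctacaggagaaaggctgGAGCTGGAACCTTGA
Cd34-201: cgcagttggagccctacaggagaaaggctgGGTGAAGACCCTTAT

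The truncated form was estimated above the full form in lines 67 and 72. In line 66 the forms were close, at 142 and 132 estimated counts. Only 84 of the 2424 31-base words of Cd34-201 and 184 of the 2524 of Cd34-202 are their own. The split between them rests largely on the reads in those stretches. Cd34-202 had 1.18, 0.713 and 5.66 TPM and Cd34-201 had 1.14, 0.262 and 3.89 TPM in lines 66, 67 and 72. Their ratio was 1.04, 2.73 and 1.46. Both were highest in line 72 and lowest in line 67. The retained-intron transcript Cd34-204 did not follow them, with 0.356, 0.353 and 0.390 TPM from 47.6, 43.1 and 49.4 counts. Cd34-203, annotated for nonsense-mediated decay and 616 bases long, had 0, 0.125 and 3.90 TPM. It made up 28.2% of the TPM of Cd34 in line 72 but 5.66% of the counts. With the coding transcripts alone Cd34 stood at 2.32, 0.975 and 9.55 TPM, line 72 being 4.11-fold above line 66 and 9.79-fold above line 67. On that scale line 66 was 2.38-fold above line 67, against 1.84-fold with all transcripts.

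Cd34 is also made by other cells of muscle, so their markers were set beside it. The study sorted satellite cells by the Pax7-nGFP reporter or as CD45-, CD31-, SCA1- and ITGA7+ cells, gates meant to leave out blood, endothelial and SCA1+ cells, and the labels do not say which gate a line came through. The 5 endothelial markers (Pecam1, Cdh5, Kdr, Vwf and Tie1) summed to 1.20, 0.885 and 1.54 TPM in lines 66, 67 and 72. Cdh5, which defines that type, had 2, 4 and 12 counts. The blood markers summed to 0.0767, 0.250 and 0.341 TPM, with Ptprc at 1, 3 and 7 counts and Adgre1 at 0 in every line. The fibro-adipogenic markers summed to 3.48, 3.70 and 3.69 TPM, with no count for Lum and Dpt and 67.4 to 114 counts for Pdgfra. The smooth muscle and pericyte markers summed to 566, 435 and 755 TPM, nearly all from Rgs5 (356, 137 and 172 TPM) and Acta2 (209, 292 and 581 TPM), while Myh11, which defines smooth muscle, had 7 to 13 counts. Of that list Rgs5, Acta2 and Cspg4 averaged 1 TPM or more, and all 3 were over 2-fold apart between lines, against 6.67% of all genes at such a level. Rgs5 was highest in line 66, Cspg4 in line 67 (0.813, 5.24 and 1.33 TPM) and Acta2 in line 72. The Schwann cell markers summed to 7.93, 8.04 and 11.1 TPM, mostly from Erbb3 (6.05, 6.61 and 9.59 TPM), with Sox10, which defines that type, at 0, 1 and 0 counts. The endothelial, blood, smooth muscle and Schwann sums were highest in line 72, as Cd34, Vcam1 and Gas1 were. The part of such cells in the levels of Cd34, Vcam1 and Gas1 was not tested. Selp, the P-selectin gene, had 10.6, 9.58 and 6.36 TPM. The CD34 relatives Podxl and Podxl2 had 7.28 to 12.2 and 3.63 to 5.48 TPM and were highest in line 66.

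The 3 genes whose pattern over the lines was nearest to that of Cd34 were Il33, S100a16 and Mest, among 8428 genes averaging 10 TPM or more. Likeness was the Euclidean distance of log2(TPM + 0.1) centred on each gene's mean over the 3 lines. It was 0.89 for Il33, which had 39.5, 15.7 and 83.4 TPM in lines 66, 67 and 72. S100a16 (19.6, 14.1 and 45.2 TPM) followed at 1.10 and Mest (463, 471 and 1227 TPM) at 1.26. A likeness over 3 points is a description only.

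Calcr was at the limit of detection and Chrdl2 was low but above it. Calcr, the calcitonin receptor that holds satellite cells in quiescence, lies on the minus strand at chr6:3685680-3764714 (ENSMUSG00000023964). It had 1, 0 and 3 counts in lines 66, 67 and 72, over 5 listed transcripts, all of them given to Calcr-203 and Calcr-205. None of these exceeds the limit of 3 counts that a count of 0 allows, which corresponds to 0.0409, 0.0448 and 0.0427 CPM in the 3 libraries. All of its 31-base words were its own. The related receptor gene Calcrl was at 8.31, 27.6 and 9.89 TPM and was over 2-fold higher in line 67 than in the other lines. The RAMP proteins give these receptors their ligand preference. Ramp3 had 27.3, 3.08 and 2.26 TPM in lines 66, 67 and 72, so that line 66 stood 8.86-fold above line 67 and 12.0-fold above line 72. Ramp2 had 4.56, 3.22 and 2.24 TPM and Ramp1 1.07, 0.521 and 1.09 TPM. Among ligands, Calca had 2.15 to 3.59 TPM, Calcb 2 to 7 counts and Iapp none. The collagen V genes, whose products signal through the calcitonin receptor in satellite cells, were present, with Col5a1 at 34.1 to 52.1 TPM, Col5a2 at 90.6 to 134 TPM and Col5a3 at 1.73, 3.16 and 7.55 TPM.

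Chrdl2, a secreted BMP antagonist of the chordin family, lies on the plus strand at chr7:100006172-100034728 (ENSMUSG00000030732). It had 15, 20.0 and 16 counts, or 0.300, 0.396 and 0.395 TPM (mean 0.364 ± 0.0548 TPM, SD, n = 3). These were split between Chrdl2-202, with 37.6% to 55.4% of the TPM, and Chrdl2-203, with 41.4% to 62.4%, and the retained-intron Chrdl2-204 had 3 counts in line 67 and none in the others. With so few counts the split is uncertain. The relatives Chrd and Chrdl1 had 3.04, 1.58 and 1.30 TPM and 0.240, 0.873 and 0.400 TPM. The BMP ligand genes Bmp2, Bmp4, Bmp6 and Bmp7 did not pass 0.245 TPM in any line, while the receptor gene Bmpr1a had 63.6 to 74.7 TPM.

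**Figure D2:**
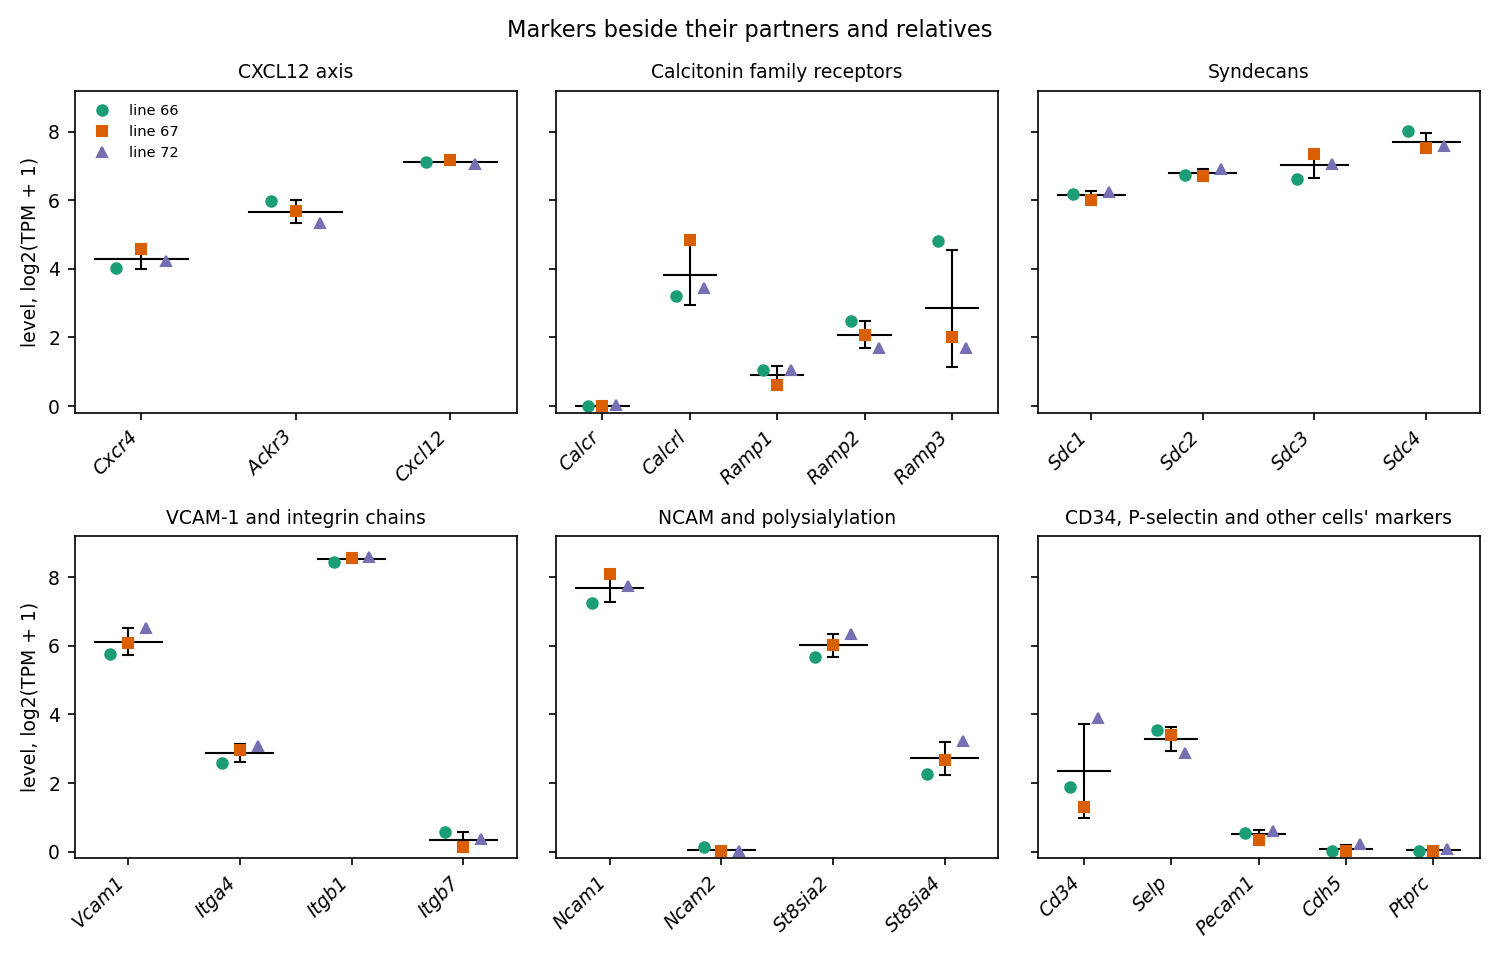
Levels on the log2(TPM + 1) scale (vertical axis) of markers and of their ligands, co-receptors, relatives or modifying enzymes (horizontal axis), in 6 panels. Points are the 3 lines, bars the mean and error bars the SD (n = 3); Calcr is at 0 while Calcrl and Ramp3 spread widely, and Cxcl12 and Ackr3 stand above Cxcr4 in all 3 lines.

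Between lines, 1 of the 8 markers averaging 1 TPM or more was over 2-fold apart in any pair, against 6.67% of the 12528 genes at such a level. That gene was Cd34. By pair, it was called for line 72 against line 66 (background 3.98%) and against line 67 (3.15%), and no marker was called for line 67 against line 66 (3.54%). Cd34 was over 2-fold above both other lines in line 72, which held for 0.694% of genes. The ratios past the mark were the 5.16-fold and 9.52-fold of Cd34, and the nearest below it were the 1.94-fold of Gas1, the 1.84-fold of Cd34 between lines 66 and 67 and the 1.82-fold of Ncam1.

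Of the 8 markers, 7 varied more between lines than the median gene, and Megf10 did not. The median range between the highest and lowest line was 0.76 on the log2 scale (1.69-fold) over the 8 markers and 0.29 (1.22-fold) over all 12528 genes. Of these genes, 92.5% had a range at or below that of Gas1, 90.6% at or below that of Ncam1, 88.4% for Vcam1, 87.4% for Sdc3, 80.7% for Cxcr4 and 76.2% for Sdc4. Line 66 was the lowest of the 3 for 6 of the 8 markers, Megf10 among them, against 44.2% of genes. The exceptions were Cd34 and Sdc4, whose lowest line was 67 (in CPM, line 72 for Sdc4). The median log2 ratio of all genes was 0.02 for line 67 over line 66, 0.08 for line 72 over line 66 and 0.06 for line 72 over line 67. The 7 chromosomes that carry these markers had median shifts of at most 0.08 on the log2 scale in any line.

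**Figure D3:**
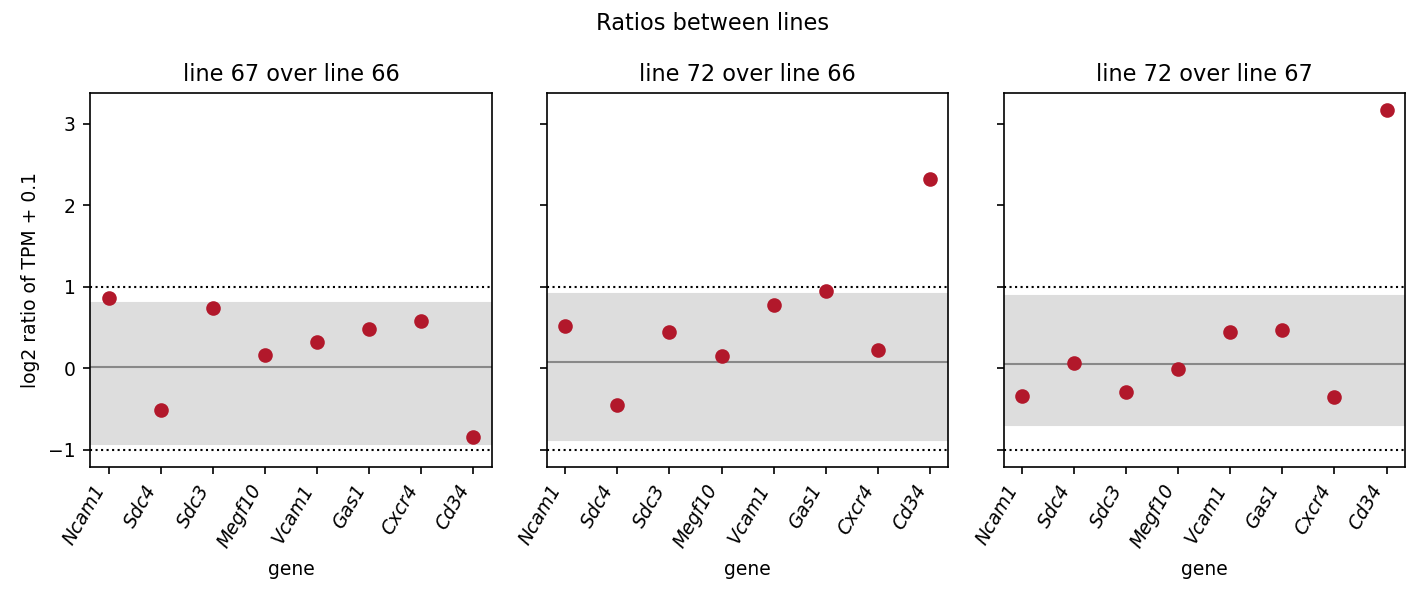
Log2 ratio of TPM + 0.1 between each pair of lines (vertical axis) for the 8 markers averaging 1 TPM or more (horizontal axis). Red points are the genes, the grey band holds 95% of the 12528 genes at such a level, the grey line is their median and the dotted lines mark 2-fold; Cd34 lies far above the band in both panels with line 72 and the other markers lie within or near it.

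**Figure D4:**
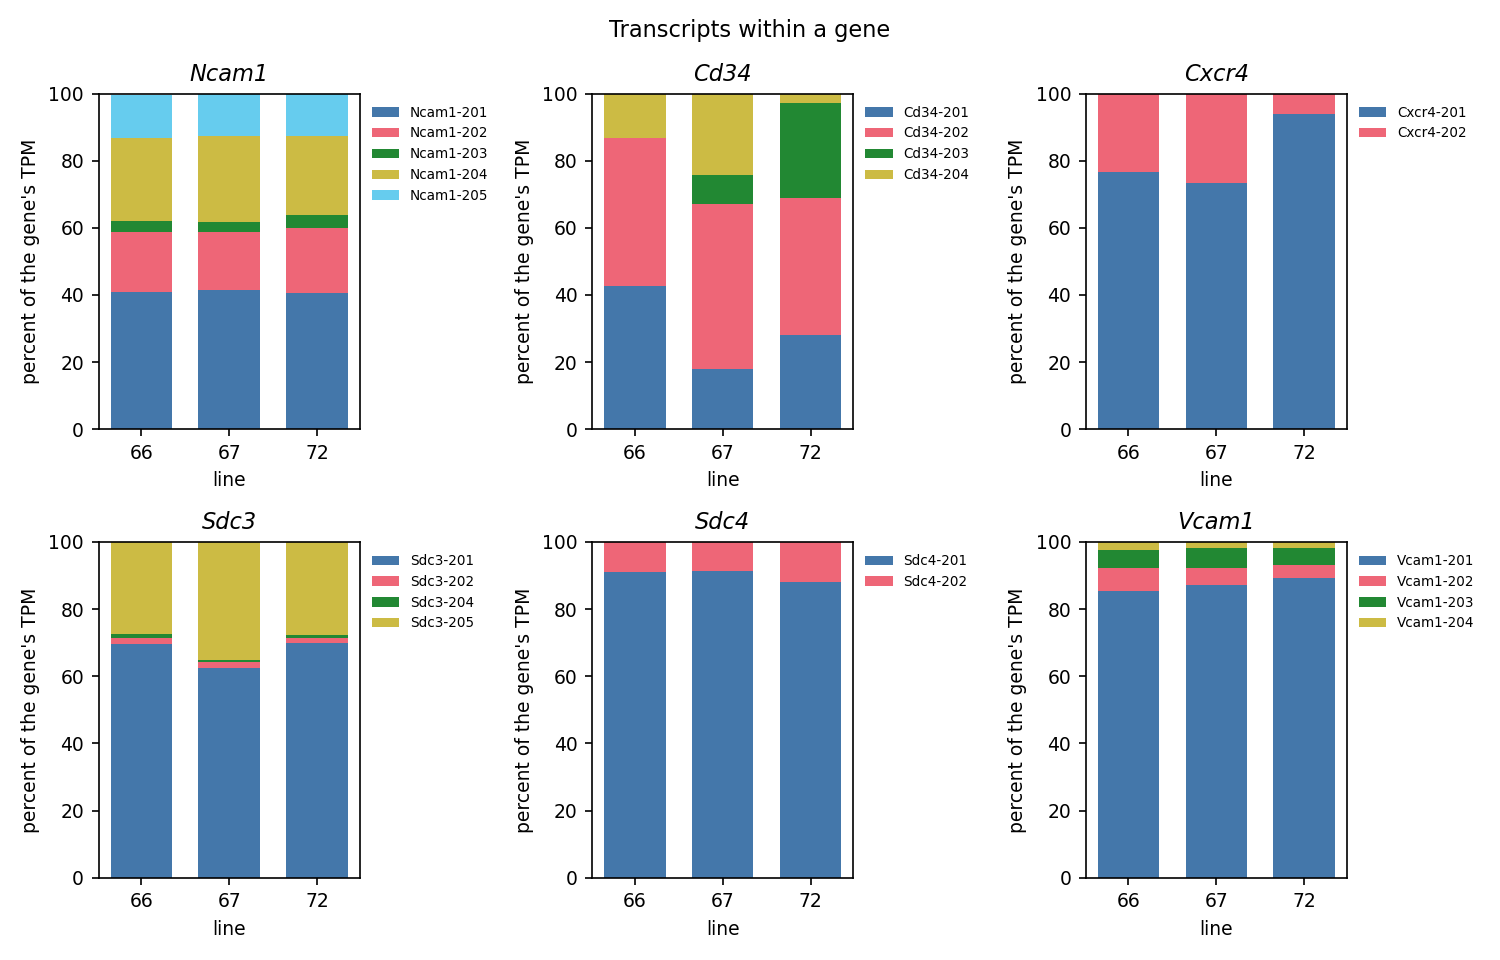
Percent of each gene's TPM (vertical axis) held by its transcripts in lines 66, 67 and 72 (horizontal axis), for 6 markers with several transcripts; transcripts under 1% in every line are left out. The bars of Ncam1 look alike in all 3 lines, with Ncam1-201 at 40.6% to 41.5%, whereas those of Cd34 and Cxcr4 differ, Cxcr4-202 being at 5.97% in line 72 against 23.2% and 26.7% in lines 66 and 67.

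Over the listed ligands, receptors, enzymes, relatives and further markers together, 81 of 104 genes were at 1 TPM or more in every line, against 47.1% of detected genes. Of the 40 partners it was 26, and 4 of the 27 partners averaging 1 TPM or more were over 2-fold apart between lines (Ramp3, Hgf, St8sia4 and Col5a3), against 6.67% of all genes. Of the 14 relatives it was 9. Calcrl and Chrd, 2 of the 9 relatives averaging 1 TPM or more, were over 2-fold apart, against the same 6.67%. Calls were made on TPM + 0.1, which left out Ramp2 and Gfra1, whose plain TPM ratios between lines 66 and 72 were 2.04-fold and just over 2-fold. Of the 4 shedding enzymes averaging 1 TPM or more, Mmp2 was called, with 14.2, 25.6 and 11.2 TPM, against the same 6.67%.

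Other lists give the setting of these levels. Of 14 other satellite cell surface markers, all 14 were at 1 TPM or more in every line, against 47.1% of detected genes, with Cd44 at 396 to 486 TPM, Itga7 at 267 to 307 TPM and Cdh15, the M-cadherin gene, at 162 to 187 TPM. Cav1 and Egfr, 2 of the 14 on that list, were over 2-fold apart between lines, against 6.67% of genes averaging 1 TPM or more. Cav1 had 40.8, 97.0 and 242 TPM and Egfr 25.4, 9.24 and 27.9 TPM in lines 66, 67 and 72. Of 15 further genes tied to quiescence, 14 were at 1 TPM or more in every line, against the same 47.1%, and 5 of the 14 averaging 1 TPM or more were over 2-fold apart, against the 6.67% of all genes. These were Cdkn1c, a cell cycle inhibitor gene (5.73, 17.0 and 48.0 TPM), Hey1, a Notch target (4.38, 2.91 and 9.36 TPM), Rgs2 (8.58, 3.21 and 2.63 TPM), Tenm4 (1.51, 1.35 and 3.38 TPM) and Col5a3. The exception among the 15 by level was Tek, at 0.295 to 0.937 TPM. Of 8 genes of cycling cells, all 8 were at 35.6 TPM or more in every line, against 31.5% of detected genes at 10 TPM or more. None of the 8 was over 2-fold apart, against the same 6.67%. Mki67 had 35.6, 64.1 and 54.3 TPM and Ccnd1 412 to 510.0 TPM.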

How the data were processed

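Poly-A-enriched, stranded TruSeq libraries of 3 myoblast lines were used, each line taken as 1 replicate of a single group. Per the submitters' processing notes, bcl2fastq 2.20, fastp 0.20 and kallisto 0.46.1 were used with the build GRCm39, and the annotation and strand setting are not given in the sources used here. The authors deposited an estimated count per transcript and a TPM value, which divides that count by the effective length and scales it to 1000000 per library. Effective lengths differed from annotated lengths (for Sdc3-201, 6306 in line 66 against 4973 bases), which enters TPM and not counts.

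Transcript identifiers were looked up in GENCODE M21 (GRCm38), the source of symbols, coordinates and printed sequences, and no coordinate was converted between builds. Of 121798 transcripts 120686 matched, and all 38 transcripts of the 10 genes had the same length as in M21. Values were summed per gene; unmatched transcripts held 0.493% to 0.535% of counts and were left out. Levels used log2(TPM + 1), ratios log2(TPM + 0.1) among genes averaging 1 TPM or more, and 2-fold marked a difference. The limit of detection was 3 counts, and intervals of count ratios were exact binomial at 95%; both cover counting error only. No test between lines was possible, as each is 1 library. Sequence sharing was measured as 31-base words found in no other listed transcript or gene.

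The genes and lists were chosen with earlier results of these data known. Named were all 10 genes, each of their transcripts with at least 5% of its gene in any line, partners, relatives and cell type markers from the lists, and the 3 genes nearest to the member with the widest range. Transcripts under 5% and genes of the other lists were named after their values were seen. Some genes of the lists are not reported here. The alternatives were other pseudocounts, thresholds and filters, CPM, coding transcripts only, scaling by edgeR's TMM or DESeq2's size factors (estimated counts rounded to whole numbers), subtraction of chromosome medians and leaving out each line. The code that makes the fold calls was checked on simulated counts. Scaling was done with edgeR 4.0.16 and DESeq2 1.42.0 under R 4.3.3, and the rest in Python 3.11.15 (pandas 2.3.3, scipy 1.17.1).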

Additional observations from a re-analysis of the deposited data

How the results depend on the processing

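The count of markers at 1 TPM or more in every line was 8 and lay between 7 and 9 under every alternative tried; with coding transcripts only, Cd34 dropped out. Cd34 was the 1 marker over 2-fold apart between lines under no filter, a pseudocount of 1, TMM-scaled and DESeq2-scaled counts and chromosome medians subtracted. The count was 0 with a filter at a mean of 10 TPM, which leaves Cd34 out. At 1.5-fold it was 5 (Cd34, Vcam1, Sdc3, Ncam1 and Gas1). The share of all genes past 1.5-fold was not taken, so these 5 have no background to be read against. Leaving out each line gave 0 to 1, with 0 without line 72, so with all transcripts the call of Cd34 rests on that library. With coding transcripts only, an alternative chosen after seeing the data, the count was 1 (Cd34), and it was also 1 without line 72, from the 2.38-fold ratio of line 66 over line 67. The median over the 8 markers of the share held by the largest transcript was 83.3% of TPM and 94.4% of estimated counts, and leaving out each line gave 80.7% to 84.9%. The number of listed partner, relative and marker genes at 1 TPM or more in every line was 81 of 104, against 47.1% of detected genes. At 10 TPM it was 59, against 31.5%. No level moved by more than its SD under TMM or DESeq2 scaling, while 7 of 10 moved with CPM, which is not divided by length. No paired analysis was possible because there is 1 group of lines and nothing to pair it with. For Calcr, depth sets the limit.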
